A study of Mus musculus with 2 samples.

Results

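The genes of the proteasome were followed through single heart muscle cells, with the constitutive subunits set against the immune ones. Members were all rows of the deposited count tables whose Ensembl ID maps to a protein-coding mouse symbol beginning with Psma, Psmb, Psmc, Psmd or Psme. They came to 43 of 24522 gene rows for cells labelled by heart chamber and 42 of 22679 for a second set of fixed and live cells, 44 symbols in all, of which 41 were in both. By role, 31 are the constitutive subunits: 7 α subunits, 4 structural β subunits and 3 catalytic β subunits of the core particle, and 6 ATPases, 3 other base subunits and 8 lid subunits of the regulatory cap. The other 13 are the 3 immune catalytic subunits, 3 chaperones that help assemble the cap, the activators Psme1, Psme2, Psme3 and Psme4, the testis subunit Psma8, the thymus subunit Psmb11, and Psmc3ip, which matches by name only and encodes a meiotic recombination factor. Psmb8 and Psmb9 in fixed and live cells, and Psmb11 in the chambers, were not analysed here.

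The proteasome is the protease that takes apart proteins tagged with ubiquitin, and heart muscle relies on it to turn over worn contractile proteins. Its barrel carries the proteolytic sites on Psmb5, Psmb6 and Psmb7. Under interferon, newly made barrels can take up Psmb8, Psmb9 and Psmb10 in their places and form the immunoproteasome, which is abundant in leukocytes and supplies peptides for antigen presentation. The cap recognises and unfolds the tagged protein, while Psme1 with Psme2, or Psme3, or Psme4 can dock on the barrel in its stead and need no ubiquitin tag.

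Cells came from adult C57BL/6 wild-type mice and were released by enzymatic digestion of the perfused heart, passed through a sorter built for large particles into plates, and sequenced by SCRB-seq, in which each RNA molecule is tagged at its 3′ end with a unique molecular identifier (UMI). In the chamber set, from animals of about 3 months, cells carried the label of a chamber, LA or RA for the atria and LV or RV for the ventricles, left and right, and were spread over 4 libraries, A to D. In the other set, ventricular cells were sorted after ethanol fixation (fixed) or without it (live). No animal is named, so the cells of a label form 1 pool and differences carry no test. Every interval is an exact 95% interval that covers counting error only.

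Kept were cells that reached 1000 gene UMIs and 500 genes: 56 LA, 44 RA, 91 LV and 90 RV cells, and 35 fixed and 31 live cells. Their nuclear-encoded UMIs summed to 933747 over LA, 470095 over RA, 2566040 over LV, 2988611 over RV, 2424636 over fixed and 1483859 over live cells, and levels are given per 1000000 of these (CPM). Since 1 molecule gives 1 UMI at its end, CPM is compared between genes without dividing by length, although capture may differ from gene to gene. The RA pool leaned on library C, which held 313967 of its 470095 nuclear-encoded UMIs, 131227 of them in 1 cell. Levels are not compared between the sets. The atrial labels did not match their markers. Of the atrial myocyte markers Nppa, Myl4, Myl7 and Sln, all 4 were at 0 UMIs in cells labelled RA, and in cells labelled LA Nppa was at 0, Myl4 at 2, Sln at 7 and Myl7 at 81 UMIs in 11 of 56 cells. The ventricular light chain gene Myl2 stood at 9322 CPM in LA and 11721 CPM in RA cells, against 10497 CPM in LV and 10335 CPM in RV cells. The labels' protocol has the ventricle excised and minced after digestion, and LA and RA below are labels only. RNA of other cells was also uneven: mesothelial markers summed to 1715 CPM in LA and 185 CPM in RA, against 51.8 CPM in LV and 69.9 CPM in RV cells, with all 6 markers detected in each pool. Of the 1601 mesothelial UMIs of LA, 969 came from 1 library B cell, and the median cell of each pool had none. Erythroid markers summed to far more, 26774 CPM in LA, 49894 CPM in RA, 12064.5 CPM in LV and 12988 CPM in RV, with all 6 detected. They took 11.3% of the nuclear-encoded UMIs of the median RA cell, against 1.81% in LA, 0.815% in LV and 0.669% in RV. In the chamber set, 80 of 84 cell barcodes were used in more than 1 library, and cells were kept apart by library and barcode together.

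Promoters of 5 genes are shown, since these genes carry the main contrasts below. Shown are those of the constitutive catalytic pair Psmb5 and Psmb6 and of the activator Psme4, the most abundant member. The others are promoters of the immune pair Psmb8 and Psmb10, genes that differed in UMIs and in cells with a UMI. Each runs 5′ to 3′ on the gene's strand, from 250 bases before to 50 bases after the RefSeq start, in GRCm38.p6, and capitals mark the motif matches described after them. Psmb5 lies at chr14:54617946-54618245 on the minus strand, Psmb6 at chr11:70525107-70525406 on the plus strand, Psmb8 at chr17:34197945-34198244 on the plus strand, Psmb10 at chr8:105938343-105938642 on the minus strand and Psme4 at chr11:30771525-30771824 on the plus strand.
Psmb5: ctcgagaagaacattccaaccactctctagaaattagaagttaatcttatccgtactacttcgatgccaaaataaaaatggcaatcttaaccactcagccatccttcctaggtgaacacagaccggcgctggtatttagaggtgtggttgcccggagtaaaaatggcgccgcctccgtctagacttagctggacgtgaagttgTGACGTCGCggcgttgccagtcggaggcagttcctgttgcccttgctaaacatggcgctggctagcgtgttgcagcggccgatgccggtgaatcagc
Psmb6: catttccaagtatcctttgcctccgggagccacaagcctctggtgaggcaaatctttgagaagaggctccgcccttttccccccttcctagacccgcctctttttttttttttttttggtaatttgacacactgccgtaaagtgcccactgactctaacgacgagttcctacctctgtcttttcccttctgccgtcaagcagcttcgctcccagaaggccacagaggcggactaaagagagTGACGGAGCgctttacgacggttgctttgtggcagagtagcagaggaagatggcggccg
Psmb8: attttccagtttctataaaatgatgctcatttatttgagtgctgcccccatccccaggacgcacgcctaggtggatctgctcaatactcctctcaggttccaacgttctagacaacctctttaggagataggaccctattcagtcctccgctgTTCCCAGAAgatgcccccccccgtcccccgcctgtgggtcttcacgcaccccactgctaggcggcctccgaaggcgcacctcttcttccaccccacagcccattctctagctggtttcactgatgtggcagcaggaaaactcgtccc
Psmb10: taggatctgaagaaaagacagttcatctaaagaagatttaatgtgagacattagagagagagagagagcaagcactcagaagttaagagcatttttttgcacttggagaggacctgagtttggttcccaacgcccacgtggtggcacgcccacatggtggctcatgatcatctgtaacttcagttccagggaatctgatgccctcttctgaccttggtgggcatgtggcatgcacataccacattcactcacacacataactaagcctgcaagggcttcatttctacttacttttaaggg
Psme4: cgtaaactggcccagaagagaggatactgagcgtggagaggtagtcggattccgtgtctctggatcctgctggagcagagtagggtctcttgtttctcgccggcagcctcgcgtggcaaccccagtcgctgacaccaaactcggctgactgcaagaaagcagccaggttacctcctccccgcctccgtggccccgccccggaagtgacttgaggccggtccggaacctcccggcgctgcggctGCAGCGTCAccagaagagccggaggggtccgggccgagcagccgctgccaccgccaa
On both strands, motifs of factors known for proteasome and interferon genes were searched: TGACTCAGC and its looser form TGACNNNGC, the antioxidant response element bound by the NRF factors, the interferon-stimulated element, written GAAA, any 2 bases and GAAA, and TTCNNNGAA, a STAT site. TGACTCAGC was in none of the promoters of 37 member genes with an entry and in 0.454% of all 32851 promoters. TGACNNNGC was in the promoters of 4 of 25 constitutive subunit genes with an entry, or 16%, and of 14.0% of all genes. Psmb5 holds it at bases 204 to 212 of the window, Psmb6 at 242 to 250 and Psme4, on the other strand, at 244 to 252. Psmb8 holds TTCNNNGAA at bases 154 to 162, a motif found in 8.30% of all promoters. The interferon-stimulated element, found in 3.44% of all promoters, was in none of the 5 shown. Among the 37 member genes with an entry it was in 4, Psmb3, Psmd4, Psmd9 and Psme1, beside 3.99% of all genes. The shown Psmb10 window held none of the 4 motifs.

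Proteasome RNA was a small share of the RNA of these cells, close to level within each set. All members together took 0.402% of the nuclear-encoded UMIs of LA cells, 0.380% of RA, 0.385% of LV and 0.360% of RV cells, and 0.142% of fixed and 0.152% of live cells. The 31 constitutive subunits summed to 3210 CPM in LA, 3197 CPM in RA, 3164 CPM in LV and 2915 CPM in RV cells, and to 1239 CPM in fixed cells, against 1295 CPM in live ones. Among cells with at least 5000 nuclear-encoded UMIs, the middle cell of 86 had 3250 CPM of constitutive subunit RNA in LV and the middle cell of 87 had 2829 CPM in RV, with ranges of 1317 to 6102 CPM in LV and 749 to 5212 CPM in RV. The median cell showed at least 1 UMI of 21 of the 31 subunits in LV and of 22 in RV.

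Subunits that stand in the particle at equal numbers did not have equal RNA. In LV cells, the α ring ran from Psma5 at 35.1 CPM to Psma7 at 182 CPM, a 5.20-fold range, and the structural β subunits from Psmb3 at 119 CPM to Psmb1 at 200 CPM, a 1.68-fold range. The ATPases that unfold substrates ran from Psmc4 at 27.3 CPM to Psmc3 at 180 CPM. In the lid, the deubiquitinase Psmd14 had the lowest level, 28.8 CPM, and its neighbour Psmd7 the highest, 218 CPM. The base scaffold Psmd1, the scaffold Psmd2 and the ubiquitin receptor Psmd4 lay between 111 and 182 CPM. The order was shared by the pools: across the 31 subunits the log2 CPM correlated with Pearson r = 0.976 between LV and RV, 0.888 between LA and RA and 0.860 between fixed and live cells, a description across genes of cells that share a protocol. The chaperones of cap assembly, Psmd5, Psmd9 and Psmd10, summed to only 80.3 CPM in LA, 29.8 CPM in RA, 45.6 CPM in LV and 34.5 CPM in RV cells.

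**Figure D1:**
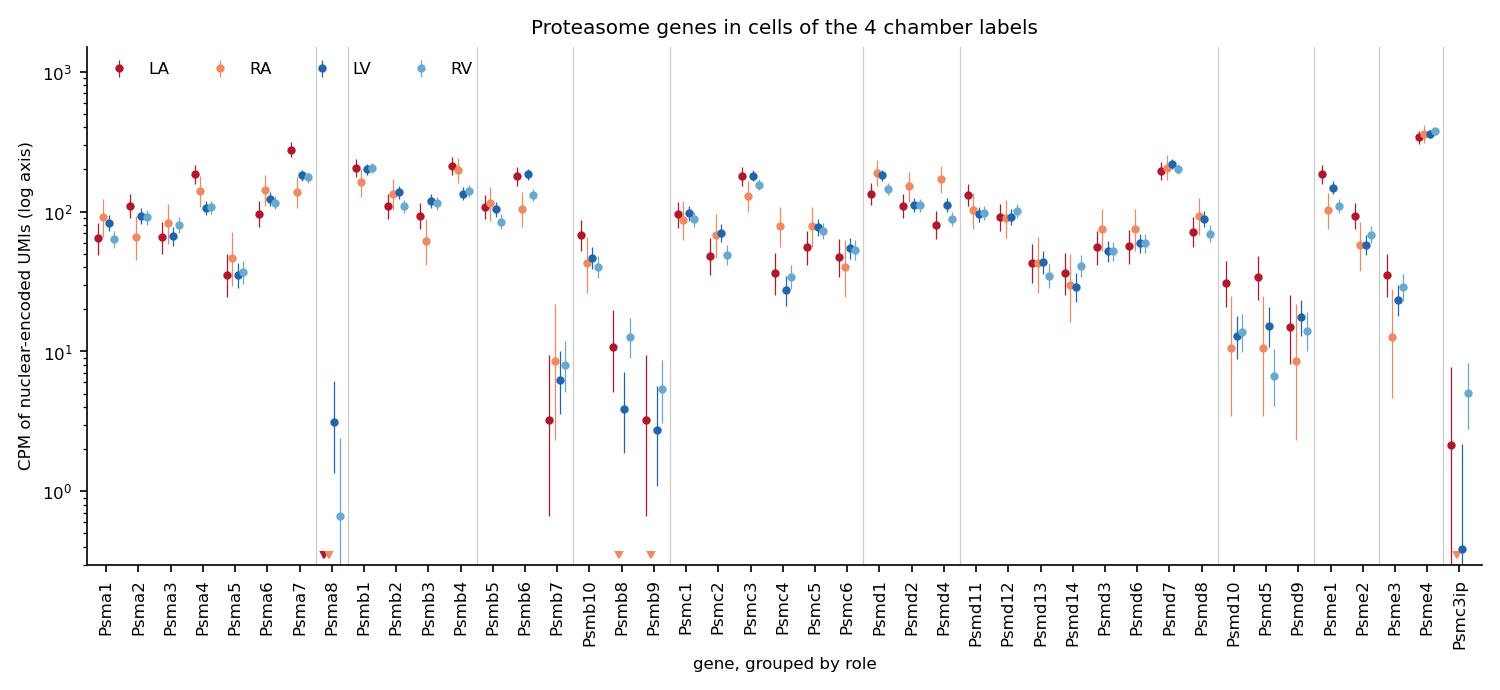
Level of each member in cells labelled LA, RA, LV and RV, in CPM of nuclear-encoded UMIs on a log axis, with genes grouped by role and groups parted by grey lines. Points are pools, bars are exact 95% counting intervals and triangles at the foot are genes at 0 UMIs. Psme4 lies above every other member in all 4 pools, and Psmb7 lies below Psmb10.

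Psme4, which encodes the activator PA200, was the most abundant member of all in each chamber pool. It had 338 CPM in LA, 360 CPM in RA, 356 CPM in LV and 376 CPM in RV cells on 316 LA, 169 RA, 913 LV and 1124 RV UMIs. It was also first in live cells, at 119 CPM, and in fixed cells, at 72.2 CPM, only Psmc3 and Psmb1 stood above it. In the chambers its pools overlapped in their intervals, from 302 to 378 CPM in LA and 307 to 418 CPM in RA to 333 to 380 CPM in LV and 354 to 399 CPM in RV. It was detected in 84 of 91 LV and 85 of 90 RV cells, and every LV and RV library held it at 254 CPM or more. Psme1 and Psme2, which form the interferon-inducible activator PA28αβ, came next among the activators. Psme1 had 184 CPM in LA, 102 CPM in RA, 148 CPM in LV and 110 CPM in RV cells, and 33.0 CPM in fixed cells, against 34.4 CPM in live ones. Psme2 had 93.2 CPM in LA, 57.4 CPM in RA, 58.1 CPM in LV and 68.3 CPM in RV cells, and 39.2 CPM in fixed cells, against 19.5 CPM in live ones. Psme1 was thus above Psme2 in each chamber pool. Psme3, the nuclear activator PA28γ, was low: 35.3 CPM in LA, 12.8 CPM in RA, 23.4 CPM in LV, 28.8 CPM in RV cells, and 8.25 CPM in fixed cells, against 18.2 CPM in live ones. Psme1 and Psme2 together made 42.6% (38.6 to 46.6) of the activator UMIs of LA, 30% (24.4 to 36.1) of RA, 35.3% (32.8 to 37.7) of LV, 30.5% (28.4 to 32.8) of RV, 47.3% (42.1 to 52.5) of fixed and 28.2% (23.0 to 33.8) of live cells. The end of Psme1 overlaps Emc9 on the other strand by 14 bases, and counts of the pair cannot be told apart there if strand was not used.

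The immune catalytic subunits were minor but present, at unequal levels. Psmb10 had 67.5 CPM in LA, 42.5 CPM in RA, 46.8 CPM in LV and 40.2 CPM in RV cells, on 63 LA, 20 RA, 120 LV and 120 RV UMIs, and 17.7 CPM in fixed cells, against 14.8 CPM in live ones, on 43 fixed and 22 live UMIs. Psmb8 had 10 UMIs (10.7 CPM) among LA cells and 0 among RA cells, with 10 UMIs (3.90 CPM) among LV and 38 UMIs (12.7 CPM) among RV cells. Psmb9 had 3 UMIs among LA, 0 among RA, 7 among LV and 16 among RV cells. With 0 UMIs, the exact interval of either gene in the RA pool reaches up to 7.85 CPM. Psmb10 therefore supplied most immune UMIs in every chamber pool. Psmb9 overlaps the transporter gene Tap1, which lies on the other strand, and Psmb8 and Psmb10 overlap antisense genes that had 1 and 3 UMIs in the chamber set.

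Of the constitutive counterparts, Psmb6 and Psmb5 were well above the immune genes and Psmb7 was not. Psmb6, which carries the caspase-like site, had 179 CPM in LA, 104 CPM in RA, 184 CPM in LV, 132 CPM in RV cells, and 68.9 CPM in fixed cells, against 51.2 CPM in live ones. Psmb5, which carries the chymotrypsin-like site, had 108 CPM in LA, 115 CPM in RA, 104 CPM in LV, 84.7 CPM in RV cells, and 39.6 CPM in fixed cells, against 26.3 CPM in live ones. Psmb7, which carries the trypsin-like site, had only 3 UMIs among LA, 4 among RA, 16 among LV, 24 among RV, 13 among fixed and 8 among live cells. Psmb10 UMIs outnumbered those of Psmb7 in all 6 pools, and made 88.2% (81.6 to 93.1) of the UMIs of the pair in LV and 83.3% (76.2 to 89.0) in RV cells. The 3′ end of Psmb7, at chromosome 2, 38588036 to 38644087 on the minus strand in GRCm38, lies inside Nek6 on the other strand, with 6571 bases shared. Nek6 itself had 27 UMIs in the chamber set, against 47 of Psmb7, and whether shared positions lower the count of Psmb7 was not tested.

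Over all 3 pairs, immune subunits made 21.9% (17.7 to 26.6) of the catalytic β UMIs of LA, 15.7% (9.89 to 23.3) of RA, 15.3% (13.0 to 17.9) of LV and 20.6% (17.9 to 23.5) of RV cells. With Psmb10 as the only immune gene, the share was 13.5% in fixed (9.93 to 17.7) and 15.2% in live cells (9.76 to 22.1), and these intervals overlapped. The difference between LV and RV was not held by all libraries. Library A gave 14.1% in LV and 9.64% in RV. Library B gave 19.6% in LV and 22.6% in RV, library C 17.8% in LV and 31.7% in RV, and library D 11.2% in LV and 22.0% in RV, so A ran against the other libraries. The share in RV was 16.6% without library C and 26.0% without library A. In RA, library C held 16 of the 20 immune UMIs, and without it the share was 8.89%. Taken pair by pair, Psmb8 made 3.61% of its pair with Psmb5 in LV and 13.1% in RV, and Psmb9 made 1.46% of its pair with Psmb6 in LV and 3.90% in RV.

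**Figure D2:**
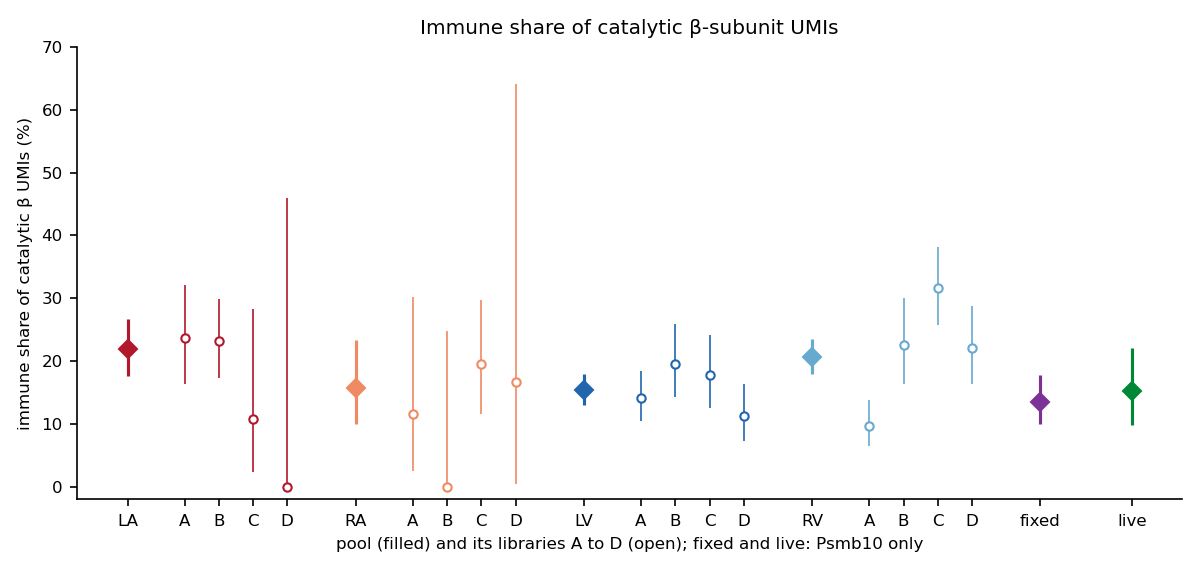
Share of catalytic β UMIs from Psmb8, Psmb9 and Psmb10, in percent, for each pool (filled diamonds) and its libraries A to D (open circles), with Psmb10 only in fixed and live cells. Bars are exact 95% counting intervals. The pools lie between 13.5 and 21.9%, and the RV libraries spread from 9.64% in A to 31.7% in C.

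Psmb8 and Psmb9 had fewer UMIs than Psmb10 and were seen in fewer cells of each chamber pool. These cell numbers are not corrected for the number of UMIs. In LA, 10 Psmb8 UMIs lay in 7 cells and 63 Psmb10 UMIs in 17. In LV, 10 Psmb8 UMIs lay in 5 cells and 120 Psmb10 UMIs in 40. In RV, 38 Psmb8 UMIs lay in 7 cells and 120 Psmb10 UMIs in 48, and in RA 20 Psmb10 UMIs lay in 5. Psmb8 was seen in 7 LA, 5 LV and 7 RV cells, and Psmb9 in 2 LA, 2 LV and 5 RV cells. In RV, 25 of the 38 Psmb8 UMIs and 7 of the 16 Psmb9 UMIs came from 1 library C cell, which also held 583 endothelial and 35 leukocyte marker UMIs and 112 UMIs of class I genes, with Myl2 at 1257 CPM. In LA, 1 library B cell with 969 mesothelial marker UMIs and Myl2 at 680 CPM gave 4 of the 10 Psmb8, 2 of the 3 Psmb9 and 18 of the 63 Psmb10 UMIs. In LV, 4 of the 7 Psmb9 UMIs came from 1 library B cell with 295 endothelial and 23 leukocyte marker UMIs and Myl2 at 1126 CPM. The Psmb10 record cells varied. That of LA is the library B cell with Myl2 at 680 CPM, and an LV library A cell with Myl2 at 1433 CPM held 15 Psmb10, 2 Psmb8 and 3 Psmb9 UMIs. The LV cell with most Psmb10, 18 UMIs, had no Psmb8 or Psmb9, 3 leukocyte marker UMIs, 2 endothelial marker UMIs and Myl2 at 12291 CPM, and the RV one, with 15 UMIs, had Myl2 at 10253 CPM. In RA, 14 of the 20 Psmb10 UMIs came from 1 cell with Myl2 at 11469 CPM, the library C cell with 131227 nuclear-encoded UMIs.

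To describe this over all cells, those with Myl2 under 25% of the median of their label were parted from the rest, a division chosen after seeing the data. There were 5 such cells of 56 in LA, 2 of 91 in LV and 2 of 90 in RV, and none in RA, fixed or live cells. In LA these cells held 18.2% of nuclear-encoded UMIs, but 4 of 10 Psmb8, 2 of 3 Psmb9 and 20 of 63 Psmb10 UMIs. In LV they held 5.31% of nuclear-encoded UMIs, but 7 of 7 Psmb9 and 3 of 10 Psmb8 UMIs, against 16 of 120 Psmb10 UMIs. In RV they held 3.50% of nuclear-encoded UMIs, 25 of 38 Psmb8 UMIs and 7 of 16 Psmb9 UMIs, but 4 of 120 Psmb10 UMIs. Psmb10 stood at 118 CPM in the low-Myl2 cells and 56.3 CPM in the others in LA. It stood at 118 CPM in the low-Myl2 cells and 42.8 CPM in the others in LV, and at 38.2 CPM in the low-Myl2 cells and 40.2 CPM in the others in RV. Psmb8 stood at 239 CPM in the low-Myl2 cells and 4.51 CPM in the others in RV. Psme4 went the other way, at 162 CPM in the low-Myl2 cells and 367 CPM in the others in LV and at 134 CPM in the low-Myl2 cells and 385 CPM in the others in RV. Without the low-Myl2 cells the immune share was 17.4% in LA, 13.3% in LV and 17.2% in RV.

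**Figure D3:**
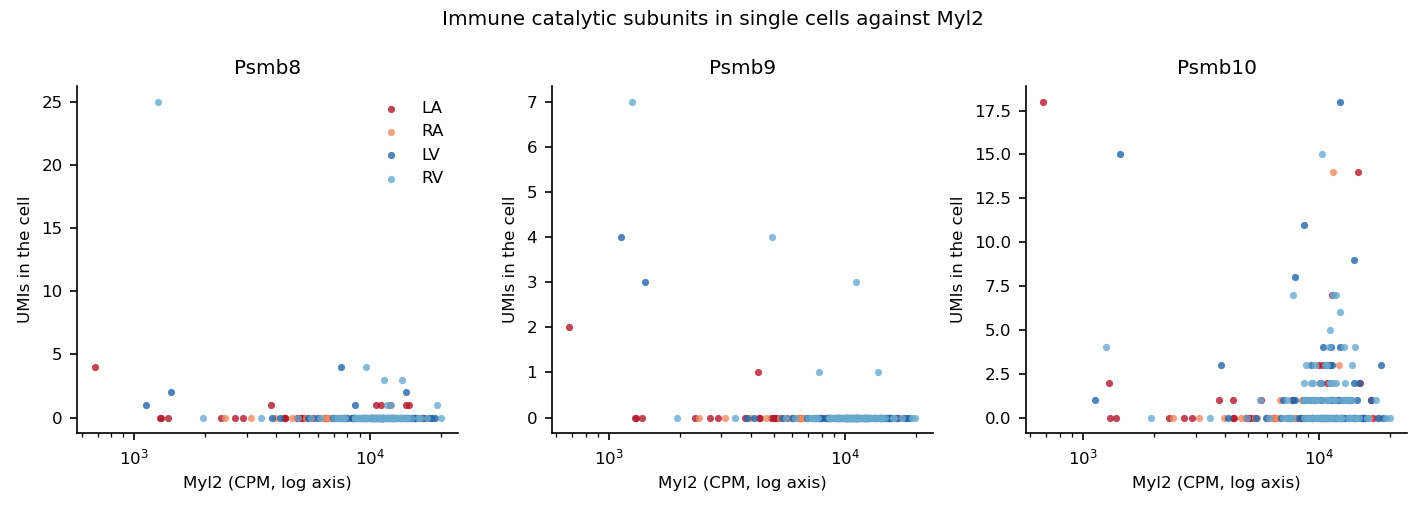
UMIs of Psmb8, Psmb9 and Psmb10 in each kept cell of the 4 chamber labels against the Myl2 level of the cell, in CPM on a log axis. Each point is 1 cell. The cell with 25 Psmb8 UMIs has Myl2 at 1257 CPM, while Psmb10 reaches 18 UMIs both at 680 CPM in an LA cell and at 12291 CPM in an LV cell.

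Detection follows depth, which differed. Psmb10 was seen in 17 of 56 LA, 5 of 44 RA, 40 of 91 LV and 48 of 90 RV cells, with 9314 (LA), 3074 (RA), 23167 (LV) and 28835 (RV) nuclear-encoded UMIs in the median cell. It was seen in 14 of 35 fixed and 6 of 31 live cells. Thinned to 5000 nuclear-encoded UMIs, Psmb10 would be seen in 19.1% of 33 LA, 9.65% of 15 RA, 16.6% of 86 LV and 17.4% of 87 RV cells, the shallower cells being left out. Ptprc, 1 of the 15 leukocyte markers, is a gene that cardiomyocytes should lack. At that depth it would be seen in 0.482% of LA, 6.48% of RA, 4.17% of LV and 2.85% of RV cells. In RA it rested on 3 UMIs in 1 cell. The 15 markers together summed to 129 CPM in LA, 63.8 CPM in RA, 104 CPM in LV and 134 CPM in RV, above Psmb10 in each chamber pool. The second set had rows for only 9 of these markers, and there the order was reversed. Fixed cells held 3 UMIs of the markers beside 43 of Psmb10, and live cells held 9 beside 22. The part of leukocyte RNA in the Psmb10 counts was not tested. Some constitutive catalytic subunit would be seen in 70.4% of LA, 55.6% of RA, 65.2% of LV and 58.8% of RV cells, and some immune one in 22.0% of LA, 9.65% of RA, 18.0% of LV and 21.1% of RV cells.

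The members with a role outside the muscle cell were close to nothing. Psma8, the α subunit of the testis proteasome, had no UMI among LA or RA cells, 8 UMIs among LV, 2 among RV, 1 among fixed and 1 among live cells. Psmb11, the thymus β subunit, had 4 UMIs in fixed and 2 in live cells. Psmc3ip had 2 UMIs among LA, 0 among RA, 1 among LV and 15 among RV cells, and 4 among fixed and 0 among live cells, and its end overlaps Mlx on the other strand. Rows of the processed copies Psmb5-ps, Psmb6-ps and Psmb6-ps2 held at most 8 UMIs in a pool, so few reads were assigned to these copies of Psmb5 and Psmb6.

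Between the ventricles, few members were 1.5-fold apart in UMIs. The constitutive subunits summed to 3164 CPM in LV, against 2915 CPM in RV, a ratio of 1.09 (1.05 to 1.12). Of 40 members with at least 30 UMIs over both pools, 1 was at least 1.5-fold higher and 1 at least 1.5-fold lower in LV, against 16.9% of 10812 genes higher and 11.9% lower. On reads, 10 members were higher and 4 lower, but the share of all genes apart on reads is not given here. In UMIs, the median log2 ratio of members was 0.04, the same as that of all genes at 0.04. Members had a median of 472.5 UMIs against 121, so that counting error moves them less. Among the roles of constitutive subunits, the ratio was highest for the catalytic ones. Psmb5, Psmb6 and Psmb7 together had 295 CPM in LV and 225 CPM in RV, a ratio of 1.31 (1.18 to 1.46), with 0.963 in library A, 1.56 in library B, 1.39 in library C and 1.43 in library D. Psmb6 was 1.40-fold higher in LV (1.22 to 1.60) and Psmb5 1.23-fold (1.03 to 1.47). Psmb5 was above 1 in 4 of 4 libraries but furthest in library D, at 120 CPM in LV and 57.7 CPM in RV. In libraries A, B and C it had 111, 81.7 and 101.9 CPM in LV, against 99.3, 78.0 and 101.3 CPM in RV. Psmb10 had a ratio of 1.16 (0.897 to 1.51).

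The 5 highest ratios of LV over RV were those of the cap chaperone Psmd5 at 2.27, the ATPase Psmc2 at 1.43, Psmb6, the activator Psme1 at 1.35 and the α subunit Psma1 at 1.31. Psmd5 rested on 39 UMIs in LV and 20 in RV, and on library C, without which it was 1.13, while without library A it was 4.19. Psme1 and Psma1 were above 1 in 4 of 4 libraries, as were Psmb2, Psmd1 and Psmd4. Psme1 leaned on library A, with 205 CPM in LV and 92.8 CPM in RV, and was at 1.12 without it. In library B it had 115 CPM in LV and 73.8 CPM in RV. Libraries C and D were nearly level, at 154 and 114 CPM in LV, against 147 and 113 CPM in RV. The 5 lowest were Psmb8 at 0.306 (0.136 to 0.627), Psmd14 at 0.706, Psmb7 at 0.776, Psmc4 at 0.799 and Psme3 at 0.813. In cells not low in Myl2, which leaves out the library C cell described above, Psmb8 had 7 UMIs in LV and 13 in RV, or 2.88 CPM in LV and 4.51 CPM in RV. Without library A its ratio was 0.122. Removing library A left 3 members higher in LV, and removing C left 2. No member was lower once C was removed, while 2 were once B and 3 once D was removed. Median-of-ratios scaling shifted all genes by -0.10 on the log2 scale and left the summed ratio at 1.01. Endothelial markers, with all 11 detected in both pools, summed to 626 CPM in LV and 578 CPM in RV, and leukocyte markers to 104 CPM in LV, where 14 of 15 were detected and Cd68 was at 0, and 134 CPM in RV, where all 15 were; their part in these ratios was not tested.

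Between fixed and live cells, the constitutive sum was nearly level while single members parted. The sum was 1239 CPM in fixed cells, against 1295 CPM in live cells, a ratio of 0.956 (0.903 to 1.01). Of 35 members with at least 30 UMIs, 5 were at least 1.5-fold higher and 6 at least 1.5-fold lower in fixed cells, against 10.8% of 7860 genes higher and 40.0% lower. The members' median log2 ratio was -0.06, and that of all genes -0.38. Members had a median of 144 UMIs and all genes 81. This level depends on the scaling: TMM shifted all genes by 0.50, median-of-ratios by 0.56 and the total of all UMIs by 0.25 on the log2 scale. With TMM, 14 members were higher and 1 lower and the summed ratio was 1.35. With median-of-ratios, 16 were higher and 0 lower, at a ratio of 1.41, and with all UMIs 8 were higher and 3 lower, at 1.14. These shifts move every gene, and the shares of all genes under these scalings are not given here. Changes of members relative to each other do not depend on the total used, and in UMIs the activators lay at both ends. Psme4 had 72.2 CPM in fixed cells, against 119 CPM in live ones, a ratio of 0.605 (0.488 to 0.750), and Psme3 had 8.25 CPM in fixed cells and 18.2 CPM in live cells, a ratio of 0.453 (0.241 to 0.839). Psme2 had 39.2 CPM in fixed cells, against 19.5 CPM in live ones, a ratio of 2.0 (1.31 to 3.15), while its partner Psme1 had 0.960 (0.667 to 1.39). On reads, Psme3 was at 0.934 and Psme1 at 1.93.

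The other members highest in fixed cells were the lid deubiquitinase Psmd14 at 2.01 (0.835 to 5.55) on 23 UMIs in fixed and 7 in live cells, the lid subunit Psmd8 at 1.65, the α subunit Psma1 at 1.64 and Psmb5 at 1.51. The lowest were, after Psme3, the ATPases Psmc4 at 0.533 (0.352 to 0.802) and Psmc6 at 0.545 (0.400 to 0.743), the lid subunit Psmd6 at 0.580, Psma5 at 0.595 and Psme4. By role, the constitutive catalytic subunits had a summed ratio of 1.37 (1.11 to 1.71) and the ATPases one of 0.814 (0.716 to 0.926). Psmb10 was at 1.20 (0.700 to 2.10). Psma1 had a ratio of 0.681 when each cell was weighted equally, and Psma5 one of 1.03 on reads. Mitochondrially encoded genes took 14.9% of gene UMIs in fixed and 28.3% in live cells. Erythroid markers summed to 20.2 CPM in fixed cells, with Slc4a1 at 0, against 525 CPM in live ones. The live sum leaned on 1 cell of 21562 nuclear-encoded UMIs, where erythroid markers took 3.45% of these, while the median live cell had none. The part of mitochondrial and erythroid RNA in these ratios was not tested.

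**Figure D4:**
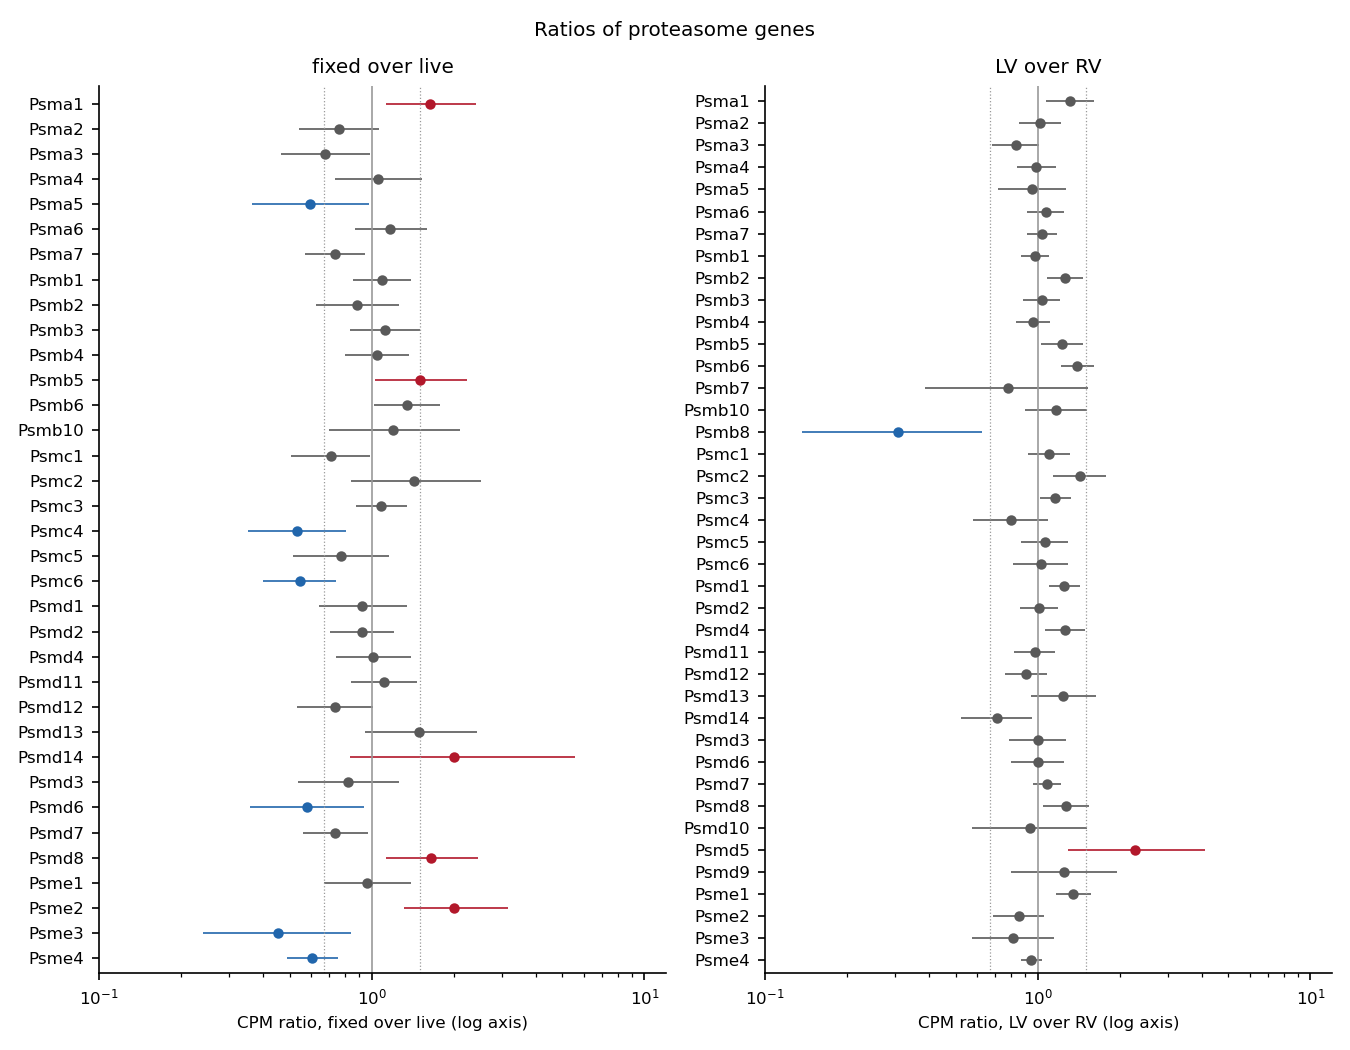
Ratio of CPM of each member with at least 30 UMIs, fixed over live cells on the left and LV over RV on the right, on log axes with exact 95% counting intervals. Dotted lines mark 1.5-fold, red points are at least that much higher and blue ones at least that much lower. Ratios spread from 0.453 to 2.01 in fixed over live cells, and LV over RV has only Psmb8 and Psmd5 outside the lines.

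Between cells with atrial and ventricular labels, the constitutive subunits summed to 3205 CPM in LA and RA together, against 3030 CPM in LV and RV together, a ratio of 1.06 (1.02 to 1.09). Of 40 members, 5 were at least 1.5-fold higher and 0 lower, against 17.0% of 11682 genes higher and 23.2% lower. The median log2 ratio was 0.02 for members and -0.07 for all genes, with medians of 594 UMIs for members and 138 UMIs for all genes. The total of all UMIs shifted all genes by 0.16 on the log2 scale and gave a summed ratio of 1.18. With each cell weighted equally the summed ratio was 0.887, with 2 members higher and 7 lower. The 5 were Psmd5 at 2.48 (1.60 to 3.81), the chaperone Psmd10, also called gankyrin, at 1.82 (1.17 to 2.76), Psmc4 at 1.63 (1.22 to 2.17), the α subunit Psma4 at 1.59 (1.36 to 1.85) and the β subunit Psmb4 at 1.51 (1.32 to 1.73). Of these, 3 changed direction without a library. Without library A, Psmd5 was at 0.987. Without library C, Psmc4 was at 0.928 and Psmd10 at 0.855, and Psmd10 was at 3.11 without library A. Without low-Myl2 cells it was at 0.555. In LA, 1 cell held 58.6% of the Psmd10 UMIs. Psma4 had 184 CPM in LA and 140 CPM in RA, against 106 CPM in LV and 107 CPM in RV. In RA, 1 cell held 59.1% of the Psma4 UMIs, and libraries A, B and D stood at 61.5, 47.8 and 0 CPM, below both ventricular pools. With equal weight per cell Psma4 was at 1.11. Psmb4 had 212 CPM in LA and 198 CPM in RA, against 134 CPM in LV and 140 CPM in RV, and was at 1.21 without library C. Psma4 and Psmb4 were each above 1 in 3 of 4 libraries. The lowest ratios were Psmb7 at 0.692, Psmb3 at 0.708 (0.576 to 0.864), Psmd9 at 0.819, Psmb8 at 0.824 and Psmc6 at 0.834. Psmb8 was at 1.93 without library C and 0.306 without library B, and Psmd9 at 0.397 without library B. Psmb3 was under 1 in 4 of 4 libraries. Psmb10 had 59.1 CPM in atrial-label and 43.2 CPM in ventricular-label cells, a ratio of 1.37 (1.05 to 1.76), above 1 in 2 of 4 libraries. Leaving out the low-Myl2 cells gave 2 higher members and 1 lower, and removing library A gave 3 higher and 1 lower. Removing B gave 3 lower and removing C gave 2. Erythroid markers summed to 34516 CPM in atrial-label and 12561 CPM in ventricular-label cells. Markers of other cells took over 2% of nuclear-encoded UMIs in 26 of 56 LA and 35 of 44 RA cells. The same held for 23 of 91 LV and 18 of 90 RV cells. The part of this RNA in these ratios, with or without equal weight per cell, was not tested.

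Between cells labelled LA and RA, the constitutive sums of 3210 CPM in LA and 3197 CPM in RA gave a ratio of 1.00 (0.943 to 1.07). Of 37 members, 10 were at least 1.5-fold higher and 2 lower in LA, against 31.6% of 5715 genes higher and 17.4% lower. The median log2 ratio was 0.03 for members and 0.11 for all genes. Of the 4 activators, 3 were among the higher ones: Psme1 at 1.80 (1.30 to 2.54), Psme2 at 1.62 (1.04 to 2.60) and Psme3 at 2.77 (1.15 to 8.08). Psme1 was at 1.02 without library C and Psme2 at 0.903 with equal weight per cell. The low-Myl2 cells held 32.6% of the Psme1 UMIs of LA, and 18.2% of its nuclear-encoded UMIs. The 5 highest were Psmd5 at 3.22 and Psmd10 at 2.92, both on 5 RA UMIs, then Psme3, Psma7 at 2.0 (1.52 to 2.67) and Psme1. Psma7 was above 1 in 4 of 4 libraries, at 1.28 without library C and at 8.02 on reads. The 5 lowest were Psmc4 at 0.463 (0.282 to 0.758), Psmd4 at 0.472 (0.340 to 0.655), Psma6 at 0.676, Psma1 at 0.702 and Psmd1 at 0.707. Psmd4, the ubiquitin receptor, had 80.3 CPM in LA and 170 CPM in RA, where 1 cell held 48.8% of its UMIs, and its ratio was 0.962 without library C. Of the RA UMIs, 1 cell also held 48.8% for Psma1 and 1 cell 43.2% for Psmc4. Psma6 was at 1.50 without library C, 1.22 with equal weight per cell and 0.455 without library A, and Psma1 at 1.93 without library C and 1.84 with equal weight. Psmb8 had 10 UMIs in LA and 0 in RA, and Psmb10 was at 1.59 (0.946 to 2.77), or 2.89 without library C and 0.791 on reads. With TMM, 8 members were higher and 7 lower. Removing library A left 5 higher and 9 lower, and 7 were lower once B and 5 once D was removed. Of the marker lists, fibroblast genes summed to 579 CPM in LA, where 6 of 7 were detected and Lum was at 0, and 89.3 CPM in RA, where 6 of 7 were detected and Tcf21 was at 0, and erythroid genes, all 6 detected in both, summed to 26774 CPM in LA and 49894 CPM in RA; their part in these ratios was not tested.

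**Figure D5:**
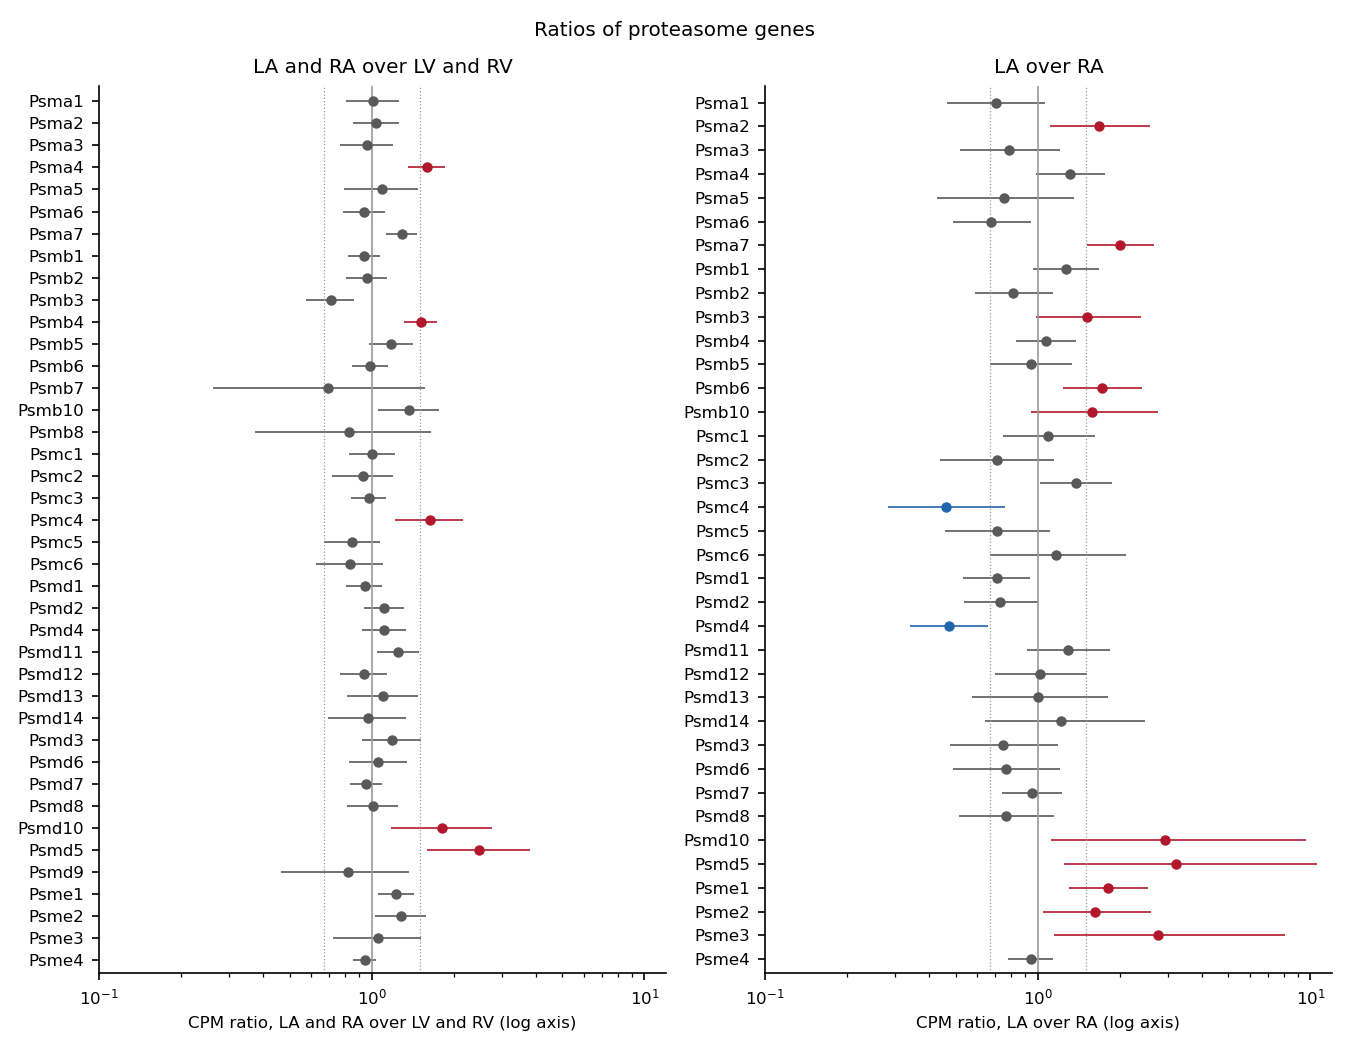
Ratio of CPM of each member with at least 30 UMIs, for LA and RA together over LV and RV together on the left and LA over RA on the right, on log axes with exact 95% counting intervals. Dotted lines mark 1.5-fold, with red points higher and blue points lower by at least that. Of 40 members, 5 lie above the upper line on the left, and of 37, 10 lie above it and 2 below the lower one on the right.

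Partners of the proteasome were taken from lists of other genes. Of assembly factors, the maturation factor Pomp was the most abundant, at 153 CPM in LV and 120 CPM in RV and 82.9 CPM in fixed cells, against 47.8 CPM in live ones. Of 5 assembly genes, 1 was at least 1.5-fold higher and 0 lower in LV over RV, the inhibitor Psmf1 at 2.02, beside 16.9% and 11.9% of all genes. In the same list, 3 of 4 with enough UMIs were higher and 1 lower in fixed over live cells, beside 10.8% and 40.0% of all genes, Psmg1 furthest at 2.58. Sem1, the smallest lid subunit, had 367 CPM in LV and 306 CPM in RV, more than any of the lid members named with Psmd. In this list of 7 cap partners, 1 was higher and 3 lower in fixed over live cells, beside the same shares of all genes, the deubiquitinase Uchl5 furthest at 0.419, and none was 1.5-fold apart between LV and RV. Nfe2l1, the factor that raises subunit genes when the proteasome is short, had 293 CPM in LV and 293 CPM in RV, and 106 CPM in fixed cells, against 140 CPM in live ones. Its relative Nfe2l2 had 57.3 CPM in LV and 54.5 CPM in RV, and in LA over RA it was the regulator furthest apart, at 5.29 on 126 UMIs in LA and 12 in RA. The unfoldase Vcp had 276 CPM in LV and 285 CPM in RV, and the cargo receptor Sqstm1 330 CPM in LV and 300 CPM in RV.

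Genes of interferon response and antigen presentation act with the immune subunits. In LV over RV, 6 of 12 with at least 30 UMIs were at least 1.5-fold higher and 1 lower, beside 16.9% and 11.9% of all genes, the regulator Nlrc5 furthest at 3.75 on 29 UMIs in LV and 9 in RV, while Psmb10 was at 1.16 and Psmb8 at 0.306. In fixed over live cells, 1 of 4 was higher and 3 lower, beside 10.8% and 40.0% of all genes, with the GTPase Igtp at 5 UMIs in fixed and 50 in live cells, and Psmb10 at 1.20. In LA over RA, 5 of 7 were higher and 0 lower, beside 31.6% and 17.4% of all genes, with H2-D1 at 140 UMIs in LA and 6 in RA. The 5 low-Myl2 cells held 113 of the H2-D1 UMIs of LA. In LV, the 2 low-Myl2 cells held 148 of 216 H2-D1, 64 of 182 H2-K1 and 124 of 294 B2m UMIs. In cells not low in Myl2, H2-D1 stood at 28.0 CPM in LV and 36.1 CPM in RV. In the same cells H2-K1 and B2m stayed higher in LV. H2-K1 stood at 48.56 CPM in LV and 36.41 CPM in RV, and B2m at 69.96 CPM in LV and 64.84 CPM in RV. In atrial over ventricular labels, 8 of 15 were higher and 2 lower, beside 17.0% and 23.2% of all genes.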

How the data were processed

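Single heart muscle cells of 2 sets were analysed, cells labelled by chamber and cells labelled fixed or live. The authors deposited counts: tables of UMI counts and read counts per gene and cell barcode, not normalized, and per-cell tables with labels and percent values, of which the deposited percent values were not used. Per the submitters' processing notes, the tools were STAR 2.5.4b and featureCounts and the build GRCm38, with no order stated. How UMIs were collapsed, which annotation was counted and whether strand was used is not given in the sources used here. Spike-in rows and 45 unlabelled barcode columns (21 and 24) were left out. Of the gene IDs, 24489 and 22648 matched GENCODE M21, which gave symbols and coordinates.

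UMIs of kept cells were summed per label and divided by the nuclear-encoded total. A ratio is a quotient of CPM with no pseudocount, with an exact Clopper-Pearson interval of the share of the summed UMIs, and levels carry exact Poisson intervals. Where 1 side had 0 UMIs, 3 counts per pool stood in as its floor. Members with at least 30 UMIs over both sides entered ratios, and 1.5-fold counted as apart. Detection at equal depth is the exact expected share of cells at 5000 UMIs. No doublet caller was run. Motifs were searched by letters in promoters from RefSeq, GRCm38.p6. Only the ratios and their intervals were tested on simulated counts, drawn per pool with counting error alone. The spread of UMIs over cells was not simulated.

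Members, gene lists and settings were chosen with earlier results of these data known. Named were the catalytic subunits, the activators and the members that are no usual subunit with all pools, the 5 highest and 5 lowest ratios per comparison, and from partner lists the most abundant and furthest genes, of which only some are printed. Alternatives were other totals, equal weight per cell, reads, a pseudocount of 5 CPM, cell filters of 5000 and 20000 UMIs, gene minimums of 10 and 100 UMIs, cells over 2% other-cell RNA left out, the top cell or each library left out. Chosen after seeing the data were leaving out cells low in Myl2, and Psmb10 alone as the immune gene. TMM factors came from edgeR 4.0.16 in R 4.3.3, and all else was computed in Python 3.11.15 with scipy 1.17.1, numpy 2.4.6 and pandas 2.3.3 and drawn with matplotlib 3.10.9. The result of 1 partner list is not reported here.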

Additional observations from a re-analysis of the deposited data

How the results depend on the processing

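No paired analysis was possible because no replicate number or animal ties the pools. The chamber labels share libraries A to D, whose ratios are counted above as descriptions; nothing says that a library stands for an animal. Of 260 alternative values of the main results, 166 stayed within their counting interval or, for counts of members, within 1.5 times, and 94 did not; of 831 for named members, 741 stayed, 80 moved and 10 turned a 1.5-fold difference round. In all, 57 of the 831 lay on the other side of 1, of which 28 stayed within the interval and 19 moved beyond it with no 1.5-fold difference as reported. The cause was not tested. Counts of members under an alternative are given without the share of all genes under the same alternative.

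For fixed over live cells, the summed ratio of constitutive subunits was 1.14 with all UMIs as total, 1.35 with TMM, 1.41 with median-of-ratios, 0.887 with equal weight per cell, 1.15 on reads and 0.895 without the top cell. Members higher numbered 8, 14 and 16 under those 3 totals, 11 on reads and 3 with a pseudocount of 5 CPM. Members lower numbered 3, 1 and 0 under the totals, 10 with equal weight and 3 with a minimum of 100 UMIs.

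For atrial over ventricular labels, the summed ratio was 1.18 with all UMIs, 0.887 with equal weight and 1.02 on reads. Higher members numbered 2 with equal weight, 3 without the top cell, 2 without cells low in Myl2 and 3 without library A. Lower members numbered 7 with equal weight, 4 on reads, 3 without cells over 2% other-cell RNA, 1 without the top cell, 2 at a minimum of 10 UMIs, 1 without cells low in Myl2, and 1, 3 and 2 without libraries A, B and C.

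For LA over RA, the summed ratio was 1.09 with equal weight, 1.12 on reads, 0.934 without cells over 2% other-cell RNA, 0.937 without library A and 1.13 without library C. Higher members numbered 6 at a minimum of 100 UMIs and 5 without library A. Lower members numbered 7 with TMM, 10 on reads, 6 and 9 in cells of at least 5000 and 20000 UMIs, 9 without cells over 2% other-cell RNA, 5 without the top cell, 1 at a minimum of 100 UMIs, and 9, 7 and 5 without libraries A, B and D.

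For LV over RV, the summed ratio was 1.13 with all UMIs, 1.03 with TMM, 1.01 with median-of-ratios, 1.16 on reads and 1.12 without library B. Higher members numbered 2 with equal weight, 10 on reads, 2 in cells of at least 20000 UMIs, 3 without cells over 2% other-cell RNA, 2 and 0 at minimums of 10 and 100 UMIs, 3 without library A and 2 without library C. Lower members numbered 2 with median-of-ratios, 4 on reads, 2 without cells over 2% other-cell RNA, 3 and 0 at minimums of 10 and 100 UMIs, and 2, 0 and 3 without libraries B, C and D.

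The immune share was 13.0% on reads in LV. Without the top cell it was 17.3% in LA, 7.69% in RA and 17.2% in RV. Without cells low in Myl2 it was 17.4% in LA and 17.2% in RV. It was 26.0% in RV without library A, and 8.89% in RA and 16.6% in RV without library C. By pair, Psmb8 with Psmb5 gave 9.01% for LA, 0% for RA, 3.61% for LV and 13.1% for RV. Psmb9 with Psmb6 gave 1.76% for LA, 0% for RA, 1.46% for LV and 3.90% for RV. Psmb10 with Psmb7 gave 95.5% for LA, 83.3% for RA, 88.2% for LV, 83.3% for RV, 76.8% for fixed and 73.3% for live cells. Psmb10 against all 3 constitutive genes gave 15.2% in RV.

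The 1.5-fold differences that turned round were, with equal weight per cell, Psma1 at 0.681 in fixed over live, Psmc4 at 0.681 and Psmd10 at 0.651 in atrial over ventricular labels and Psme2 at 0.903 in LA over RA. On reads, Psma5 was at 1.03 in fixed over live and Psmb10 at 0.791 in LA over RA. In atrial over ventricular labels, Psmd10 was at 0.555 without cells low in Myl2, Psmd5 at 0.987 without library A, and Psmc4 at 0.928 and Psmd10 at 0.855 without library C. Depth limits RA most: with 44 cells, the floor of 3 counts there is 6.38 CPM. Of ratios under 1.5-fold as reported, those that crossed 1 beyond their interval include Psma6 and Psma1 in LA over RA and Psmb8 in atrial over ventricular labels, given above. They also include Psmb10 at 0.931 and Psme1 at 0.957 with equal weight in atrial over ventricular labels and Psmb6 at 0.986 on reads in fixed over live. Reads also gave Psmd14 at 0.355 in LV over RV, Psmb3 at 0.374 in atrial over ventricular labels and Psmd6 at 0.289 in fixed over live.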
